A study of Mus musculus with 2 samples.

Results

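Pyruvate made from glucose or lactate in the cytosol enters mitochondria, where it is burned to acetyl-CoA or carboxylated to oxaloacetate. Acetyl-CoA then feeds the tricarboxylic acid (TCA) cycle, which releases CO2 and passes electrons to the respiratory chain. Steroid-making cells also draw reducing power from side branches of the cycle, through malic enzymes and NADP-dependent isocitrate dehydrogenases, to drive the cytochrome P450 steps of steroid synthesis. Described here are 35 genes of these steps: the mitochondrial pyruvate carrier, the pyruvate dehydrogenase complex with its kinases and phosphatases, the enzymes from citrate to oxaloacetate, and the side entries through pyruvate carboxylase, malic enzymes, glutamate dehydrogenase and transaminases. They were chosen by gene symbol, and all 35 were found among the 17707 annotated genes with reads.

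The RNA came from whole adrenal glands of females of an F1 hybrid mouse strain, B6CASTF1/J, 18 to 20 months old. The series holds 1 untreated group of 2 long-read libraries, replicates 1 and 2, each from 1 µg of total RNA with added ERCC spike-ins. The biosample entries name Female 03 and Female 04, whereas the donor entry is shared, so separate animals are not established. The binomial and Fisher tests below hold counting error alone, and their p-values compare these 2 libraries. A long read can cover a transcript from end to end and show its splicing, although many reads cover a part of it.

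Replicate 1 held 1412947 reads on annotated genes and replicate 2 held 933963. Levels are given as CPM, counts scaled to equal totals of gene reads, and 3 reads correspond to 2.12 and 3.21 CPM. Marker genes of adrenal cortex and medulla were abundant, with summed levels of 52752 and 59331 CPM for 5 cortex genes and 11991 and 9406 CPM for 5 medulla genes. Liver and kidney markers summed to at most 6.37 CPM. Markers of skeletal muscle summed to 741 CPM in replicate 1 and 1.07 CPM in replicate 2, where 5 of the 6 genes, Acta1 and Ckm among them, had no read. Those of brown fat summed to 3041 and 1496 CPM. Intervals are exact 95% Clopper-Pearson intervals and cover counting error only.

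The models of 3 of the genes differed from the annotation at a junction, and these junctions are shown first because the reads of these genes rest on them. The main form of a gene was the intron chain with the most reads over both libraries, and among the 34 genes that both libraries covered with 20 reads or more it was new to the GENCODE M21 annotation for Mpc1, Idh3g and Got2. Over all 6413 genes with that depth, 223 (3.48%) had a new main form. Those of Mpc1 and Idh3g were known from earlier results on these data and are given as a description. Sequences below are spliced RNA-strand sequences of GRCm38 (mm10) taken from the annotated transcripts, since the deposited models carry no read sequence.

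Mpc1 (ENSMUSG00000023861.17, chromosome 17, 8282904 to 8297661, plus strand) encodes 1 of the subunits of the mitochondrial pyruvate carrier. An internal exon of 4 bases is annotated in 4 of its coding transcripts, at 8296527 to 8296530 in Mpc1-201 and at 8293415 to 8293418 in Mpc1-205, Mpc1-206 and Mpc1-208. The exon before it ends as in the main form in Mpc1-201, Mpc1-206 and Mpc1-208. In Mpc1-201 the annotated intron after the 4-base exon, from 8296531 to 8296534, is itself 4 bases long and had no read in either library. Mpc1-206 shares both introns beside the 4-base exon with Mpc1-208, so that Mpc1-201 and Mpc1-208 are printed. The main form had a single intron there, from 8283962 to 8296534, and no 4-base exon. Capitals mark the 4-base exon in the spliced stretch at chr17:8283932-8296564.
Mpc1-201: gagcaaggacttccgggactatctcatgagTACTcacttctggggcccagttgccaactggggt
Mpc1-208: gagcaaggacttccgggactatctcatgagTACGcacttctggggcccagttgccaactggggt
Mpc1 main form: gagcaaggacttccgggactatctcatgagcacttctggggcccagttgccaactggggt
The main form took 354 of 380 Mpc1 reads in replicate 1 (93.2%, interval 90.1 to 95.5%) and 259 of 279 in replicate 2 (92.8%, interval 89.2 to 95.6%). No read of either library was assigned to a model with the 4-base exon, and the exact interval for this share ended at 0.966% and 1.31%. Mpc1-202, an annotated form in which that exon is longer, had 5 and 7 reads. Of the other introns that border the 4-base exon, 8283962 to 8296526 had 4 and 1 reads, and 8293419 to 8296534 had 2 and 0. These reads lay on models without a separate exon of 4 bases. After the first of these introns a longer exon begins at 8296527 and so includes the 4 bases of Mpc1-201. Before the second, the exon ends at 8293418, as the 4-base exon of Mpc1-208 does. Read from the annotated start codon, the exons of the main form gave 42 codons before a stop, against 109 codons in Mpc1-201 and Mpc1-208. These counts follow the exons of the models. Whether the reads themselves lacked the 4 bases was not tested, since the models carry no read sequence.

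Idh3g (ENSMUSG00000002010.17, chromosome X, 73778963 to 73786897, minus strand) encodes the gamma subunit of the NAD-dependent isocitrate dehydrogenase. The coding transcript Idh3g-201 holds an internal exon of 12 bases at 73782298 to 73782309. The main form left it out and began the intron 4 bases further downstream, so that the intron ran over 73782104 to 73782670. A second form left the 12 bases out without the shift. Capitals mark the 12-base exon and, in the main form, the 4 added bases, in the spliced stretch at chrX:73782074-73782704.
Idh3g-201: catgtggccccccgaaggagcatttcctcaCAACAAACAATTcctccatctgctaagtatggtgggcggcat
Idh3g main form: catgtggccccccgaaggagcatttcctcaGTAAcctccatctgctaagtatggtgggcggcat
Idh3g form without the 12-base exon: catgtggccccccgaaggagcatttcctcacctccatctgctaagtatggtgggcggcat
The main form took 425 of 603 reads in replicate 1 (70.5%, interval 66.7 to 74.1%) and 252 of 375 in replicate 2 (67.2%, interval 62.2 to 71.9%). The second form took 42 and 26 reads, 6.97% and 6.93%. Again, models with the 12-base exon had no read, where 3 reads would make 0.498% and 0.8% of the gene's reads. The 4 added bases are the first intronic bases in Idh3g-209, an annotated transcript that retains this intron, and 1 of the 4 matched the first 4 bases of the 12-base exon, position by position. From the annotated start codon the exons of the main form gave 46 codons before a stop, those of the second form 389, and those of Idh3g-201 gave 393. As for Mpc1, these counts follow the exons of the models. Whether the reads lacked the 12 bases or held the 4 added bases was not tested.

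Very small exons were rare in the models of every gene. Of the reads on models with 3 or more exons, 70 of 1225211 in replicate 1 and 56 of 783810 in replicate 2 lay on models with an internal exon of 12 bases or fewer. Among genes covered to that depth, 193 annotated coding transcripts of 88 genes hold such an exon, and 4 of these transcripts had any read. The part of exon size in the forms of Mpc1 and Idh3g was not tested.

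**Figure D1:**
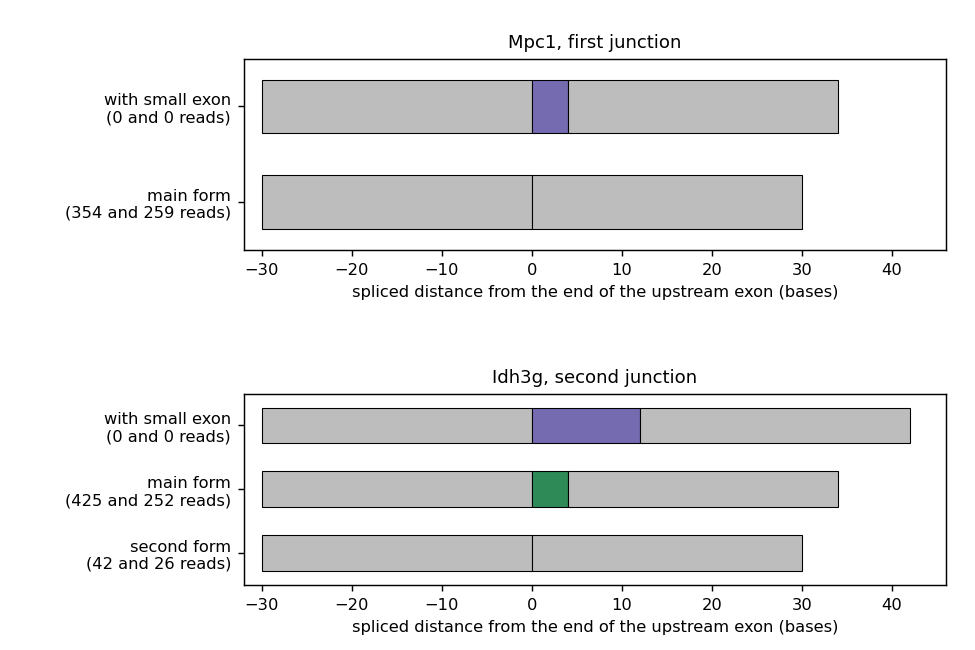
Forms of Mpc1 and Idh3g around the junctions printed above, drawn to scale in spliced bases, with 30 bases of the flanking exons in grey, the annotated small exon in purple and the added bases in green; the reads of replicates 1 and 2 are given beside each form. The annotated forms with the small exon held 0 and 0 reads, and the main forms held 354 and 259 reads for Mpc1 and 425 and 252 reads for Idh3g.

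Got2 (ENSMUSG00000031672.8, chromosome 8, 95864134 to 95888547, minus strand) encodes the mitochondrial aspartate aminotransferase. Its reads were divided between 2 forms that differed at the last intron alone. In Got2-201 this intron covers 95865252 to 95866820, and in the new form 95865248 to 95866816, so that both ends were moved by 4 bases and the spliced length over the junction was the same. Capitals mark the 4 exon bases of Got2-201 that the new form leaves out, at chr8:95865222-95866850.
Got2-201: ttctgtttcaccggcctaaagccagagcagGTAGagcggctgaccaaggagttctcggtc
The bases that the new form takes up instead lie in the intron and were not analysed here. Whether the 2 forms differ in sequence, or only in the placement of reads at this junction, was therefore not tested. The new form took 133 of 297 reads in replicate 1 (44.8%, interval 39.0 to 50.6%) and 78 of 174 in replicate 2 (44.8%, interval 37.3 to 52.5%). Got2-201 took 118 and 60 reads, 39.7% and 34.5%. The intervals of both forms overlapped in each library. When internal exons of up to 12 bases were ignored and intron ends were allowed to differ by up to 5 bases, a rule chosen after seeing the data, all 3 main forms matched an annotated transcript, as did 38 of the 223 over all genes.

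Together the 35 genes took 1.33% of the reads on annotated genes in replicate 1, with an interval of 1.32 to 1.35%. Their share in replicate 2 was 1.22%, with an interval of 1.2 to 1.25%, and the mean was 1.28 ± 0.0790% (SD, n = 2). In whole tissue, fewer cells of a type and less RNA per cell cannot be told apart. The highest levels were those of side entries: Me1 and Pcx led the order, followed by Idh1. The lowest were those of the regulatory kinases and phosphatases other than Pdk4, and of Me3. Of the 34 neighbouring pairs in the order of mean CPM, 7 were set apart, and the ranges of the other 27 overlapped. In a pair set apart, the lower library of the upper gene lay above the higher library of the lower gene.

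**Figure D2:**
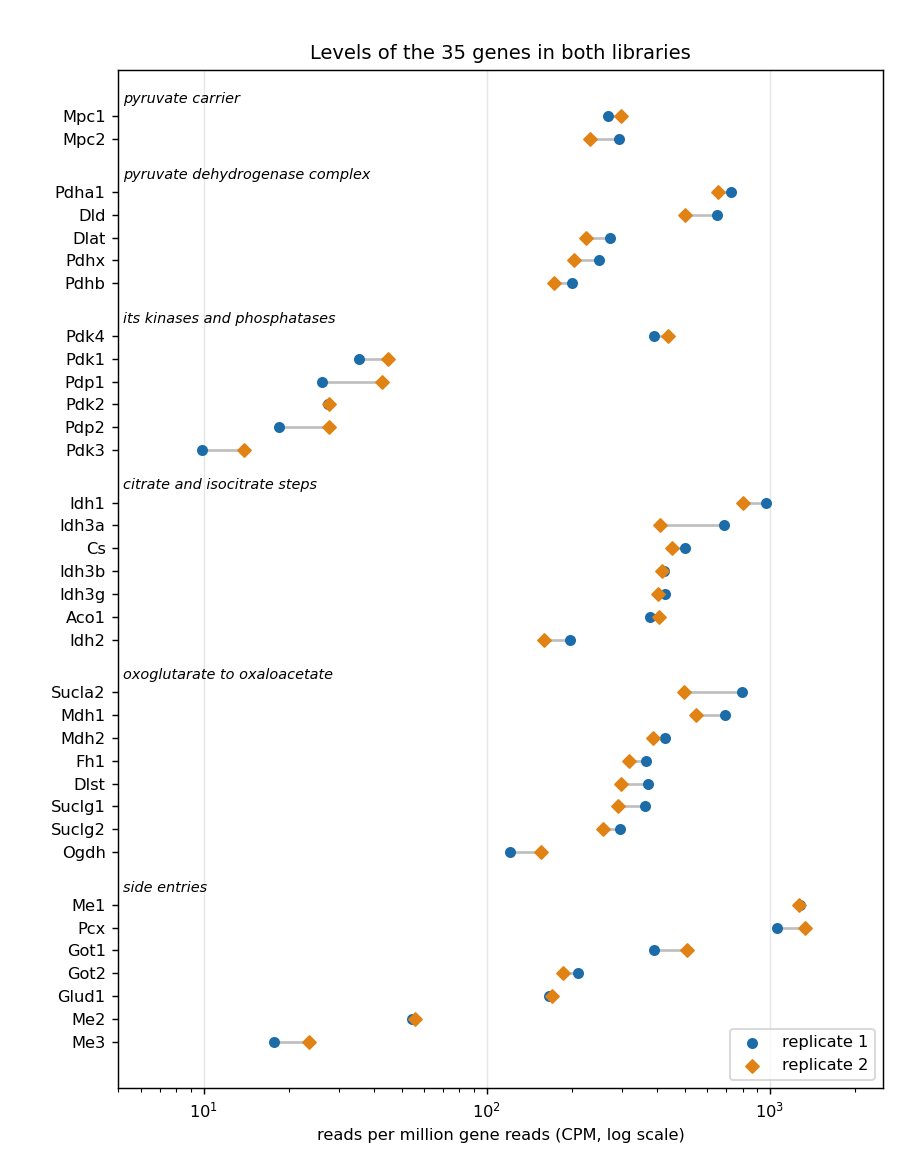
CPM of each gene in replicate 1 (blue circles) and replicate 2 (orange diamonds) on a log axis, by role and ordered by mean within a role; grey lines join the libraries. Me1 and Pcx lie above 1000 CPM in both libraries, and Pdk3 at 9.91 and 13.9 CPM is lowest.

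The pyruvate carrier is a pair of small proteins of the inner mitochondrial membrane. Mpc1 had 380 and 279 reads in replicates 1 and 2, a level of 284 ± 21.1 CPM (mean ± SD, n = 2, as in all levels that follow). Mpc2, its partner, had 413 and 217 reads and 262 ± 42.4 CPM. Their levels overlapped between libraries.

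The pyruvate dehydrogenase complex turns pyruvate into acetyl-CoA with 3 catalytic components, E1, E2 and E3, and a binding protein. Pdha1, the E1 alpha subunit, had 1026 and 610 reads and stood highest of the complex at 690 ± 51.6 CPM. Pdhb, the E1 beta subunit, had 282 and 161 reads and 186 ± 19.2 CPM, so that Pdha1 lay above Pdhb in both libraries although their products pair in the enzyme. Dlat, the E2 core, had 385 and 209 reads and 248 ± 34.4 CPM. Pdhx, which ties E3 to the core, had 353 and 190 reads and 227 ± 32.8 CPM. Dld, the E3 component, is shared with the oxoglutarate complex and other enzymes. It had 916 and 468 reads and 575 ± 104 CPM.

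Kinases switch the complex off and phosphatases switch it on. Pdk4, the kinase isoform known to rise in fasting, stood highest of the 4 kinases with 550 and 408 reads and 413 ± 33.7 CPM. Pdk1 had 50 and 42 reads and 40.2 ± 6.78 CPM. Pdk2 had 39 and 26 reads and 27.7 ± 0.167 CPM. Pdk4 thus exceeded the other kinases in both libraries. Pdk3 had 14 and 13 reads and 11.9 ± 2.84 CPM, the lowest of the 35. The phosphatases Pdp1, with 37 and 40 reads and 34.5 ± 11.8 CPM, and Pdp2, with 26 and 26 reads and 23.1 ± 6.67 CPM, overlapped each other.

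From citrate to oxoglutarate, citrate synthase Cs joins acetyl-CoA to oxaloacetate and had 709 and 422 reads and 477 ± 35.3 CPM. Aco1, the cytosolic aconitase that also serves as an iron sensor, had 534 and 379 reads and 392 ± 19.7 CPM. Idh1, the cytosolic NADP-dependent isocitrate dehydrogenase, had 1366 and 751 reads and 885 ± 115 CPM. Its mitochondrial counterpart Idh2 had 277 and 149 reads and 178 ± 25.8 CPM, below Idh1 in both libraries. The NAD-dependent enzyme is built from 3 kinds of subunit. Idh3a, the alpha subunit, had 970 and 381 reads and 547 ± 197 CPM. Idh3b had 597 and 389 reads and 419.5 ± 4.25 CPM, and Idh3g had 603 and 375 reads and 414 ± 17.9 CPM, so that Idh3b and Idh3g overlapped and Idh3a lay above both in replicate 1 alone.

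In the second arc of the cycle, Ogdh, the E1 component of the oxoglutarate dehydrogenase complex, had 171 and 145 reads and 138 ± 24.2 CPM. Dlst, its E2 core, had 522 and 278 reads and 333.5 ± 50.8 CPM and lay above Ogdh in both libraries. Succinyl-CoA ligase has a common alpha subunit, Suclg1, with 511 and 272 reads and 326 ± 49.8 CPM. Its ATP-forming beta subunit Sucla2 had 1121 and 463 reads and 645 ± 210.5 CPM, and its GTP-forming beta subunit Suclg2 had 419 and 241 reads and 277 ± 27.2 CPM. Sucla2 lay above Suclg2 in both libraries. Fh1, fumarase, had 514 and 298 reads and 341 ± 31.6 CPM. The malate dehydrogenases followed the same order in both libraries. The cytosolic Mdh1 had 980 and 513 reads and 621 ± 102 CPM, above the mitochondrial Mdh2 with 601 and 362 reads and 406.5 ± 26.7 CPM.

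Side entries ranged from the highest gene of the 35 to the next to lowest. Me1, the cytosolic NADP-dependent malic enzyme, had 1808 and 1185 reads and 1274 ± 7.64 CPM, the highest mean of the 35. Me2 and Me3, the mitochondrial malic enzymes, had 77 and 52 reads (55.1 ± 0.835 CPM) and 25 and 22 reads (20.6 ± 4.15 CPM). Pcx, pyruvate carboxylase, had 1490 and 1238 reads and 1190 ± 192 CPM, which overlapped Me1. Transaminases and glutamate dehydrogenase link the cycle to amino acids. Got1, the cytosolic aspartate aminotransferase, had 549 and 477 reads and 450 ± 86.4 CPM, above its mitochondrial counterpart Got2 with 297 and 174 reads and 198 ± 16.9 CPM. Glud1, glutamate dehydrogenase, had 235 and 159 reads and 168 ± 2.77 CPM. In the pairs Idh1 and Idh2, Mdh1 and Mdh2, Got1 and Got2, and Me1 with Me2 or Me3, the cytosolic gene was higher than the mitochondrial one in both libraries. This order was not general. Among other pathway genes, the cytosolic Pck1 at 824.5 and 548 CPM also lay above the mitochondrial Pck2 at 46 and 55.7 CPM. The cytosolic Gpt at 17.7 and 33.2 CPM lay below the mitochondrial Gpt2 at 173 and 294 CPM. CPM was not divided by length, and on the scale of CPM per kb of the main form 5 of the 10 highest genes were again among the 10 highest.

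The libraries were then compared gene by gene. Of the 35 genes, 10 differed in an exact binomial test with Benjamini-Hochberg adjustment over 11068 genes at 0.05, after TMM scaling, against a background of 1286 genes or 11.6%. The 8 that were higher in replicate 1 were Idh3a, Sucla2, Dld, Mdh1, Mpc2, Suclg1, Dlst and Idh1, against 5.88% of all genes in that direction. The 2 that were higher in replicate 2 were Got1 and Pcx, against 5.74% in that direction, and with ERCC totals as the scale their log2 ratios were 0.04 and -0.03, neither past the test. Calls rise with depth: among the 890 genes whose reads over both libraries lay between 410 and 1078.5, the middle range of the 35, 35.3% were called, and of the 17 genes of the list in that range 4 were, or 23.5%. With a spread estimated in edgeR, a coefficient of variation of 21.5%, edgeR's exact test called 0 of the 35 and 27 of all genes (0.244%). Of the 35, 0 had an unadjusted p under 0.05. The spread was estimated from the same 2 libraries, so that their differences were counted in it and few calls follow from the design. This test therefore cannot decide whether the libraries differ.

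Idh3a showed the largest ratio of the 10, at 686.5 and 408 CPM, 1.72-fold higher in replicate 1 (interval 1.53 to 1.94, adjusted p = 2.92e-18 in the exact binomial test). Sucla2 followed at 793 and 496 CPM, 1.64-fold higher in replicate 1 (interval 1.47 to 1.83, adjusted p = 7.36e-18 in the exact binomial test). The complete annotated forms Idh3a-205 and Sucla2-203 held 89.5% or more of their reads in both libraries. Dld stood at 648 and 501 CPM, 1.32-fold higher in replicate 1 (interval 1.18 to 1.48, adjusted p = 2.38e-05, exact binomial test). Dlst, which Dld serves in the oxoglutarate complex, stood at 369 and 298 CPM, 1.27-fold higher in replicate 1 (interval 1.10 to 1.47, adjusted p = 0.0161, exact binomial test). Suclg1, the next enzyme's alpha subunit, stood at 362 and 291 CPM, 1.27-fold higher (interval 1.09 to 1.48, adjusted p = 0.0173, exact binomial test). Together with Mdh1 these make 4 of the 8 genes between oxoglutarate and oxaloacetate, and Ogdh, Suclg2, Fh1 and Mdh2 did not pass.

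Mdh1 stood at 694 and 549 CPM, 1.29-fold higher in replicate 1 (interval 1.16 to 1.44, adjusted p = 7.39e-05, exact binomial test). Idh1 stood at 967 and 804 CPM, 1.23-fold higher in replicate 1 (interval 1.12 to 1.35, adjusted p = 1.43e-04, exact binomial test). Mpc2 stood at 292 and 232 CPM, 1.29-fold higher in replicate 1 (interval 1.09 to 1.52, adjusted p = 0.0281, exact binomial test). Mpc2 did not pass the binomial test with total reads as the scale (adjusted p = 0.0536), on Known models (0.134) or on Known and new spliced models (0.0587). On Known models Suclg1 (adjusted p = 0.272) and Dlst (0.0765) did not pass the binomial test either, and on Known and new spliced models Suclg1 did not (0.0934). Mdh1 and Idh1 thus add 2 cytosolic dehydrogenases to the list. Pcx, by contrast, stood at 1054.5 and 1325.5 CPM, 1.23-fold higher in replicate 2 (interval 1.14 to 1.33, adjusted p = 4.16e-06, exact binomial test). Got1 stood at 388.5 and 511 CPM, 1.29-fold higher in replicate 2 (interval 1.14 to 1.46, adjusted p = 0.00150, exact binomial test). After TMM scaling no ratio of the 35 exceeded a factor of 2, whereas with ERCC totals Idh3a and Sucla2 did, with log2 ratios of -1.11 and -1.04.

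By role, 1 of 2 carrier genes, 1 of 5 dehydrogenase complex genes, 0 of 6 kinases and phosphatases, 2 of 7 citrate and isocitrate genes, 4 of 8 genes from oxoglutarate on and 2 of 7 side entries were called. The share called was 11.6% over all genes tested and 35.3% over genes in the middle range of the 35 in reads. All 5 genes of the dehydrogenase complex had log2 ratios of replicate 2 over replicate 1 below 0, with a median of -0.32, and Dld alone passed the test. Among the kinases and phosphatases 5 of 6 were above 0, with a median of 0.38, from at most 40 reads per library except for Pdk1 and Pdk4. The median log2 ratio over the 35 was -0.17, beside -0.02 over all genes tested, and 23 of 35 were below 0.

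**Figure D3:**
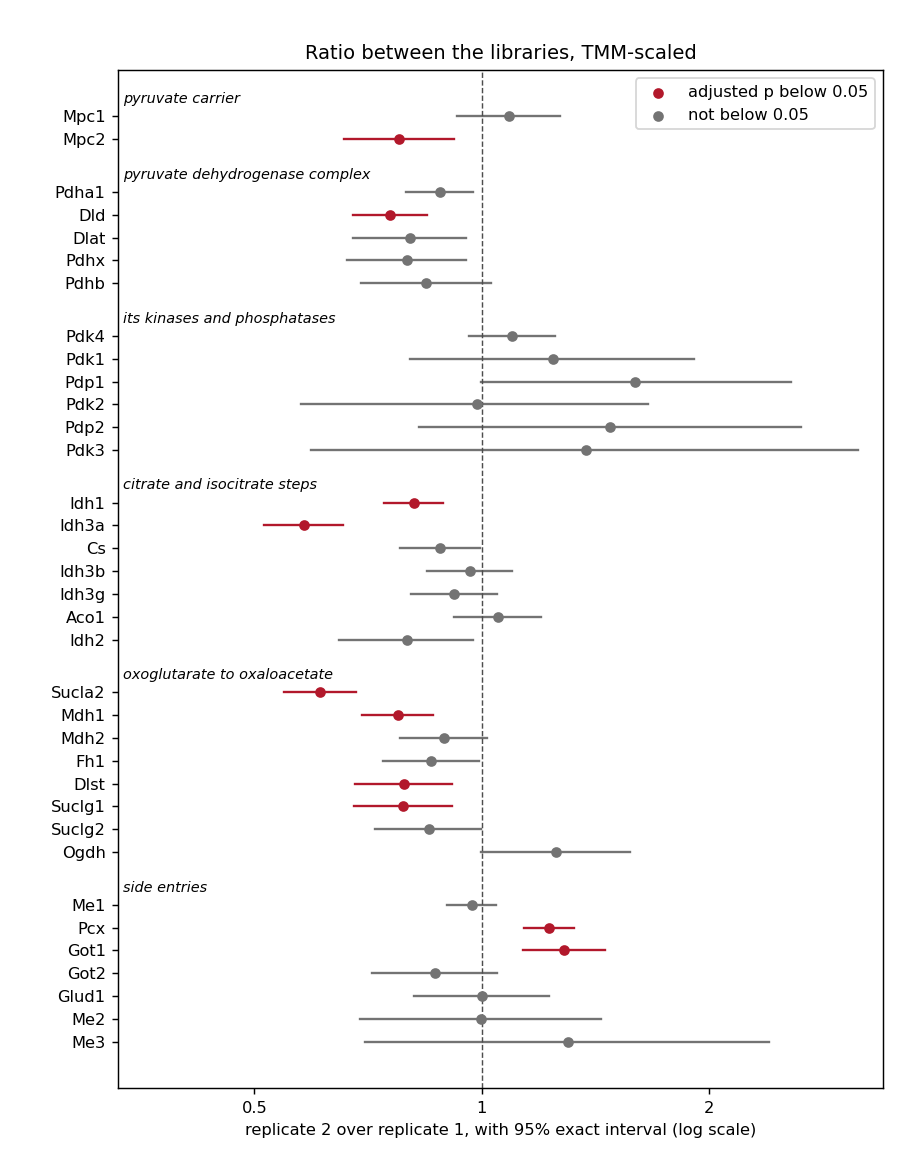
Ratio of replicate 2 over replicate 1 for each gene after TMM scaling, with its exact 95% interval on a log axis, by role; red marks an adjusted p below 0.05 in the exact binomial test. The 8 red genes left of 1 include Idh3a and Sucla2, whose intervals end at 0.655 and 0.681, and the 2 red genes right of 1 are Pcx and Got1.

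The ratios differed between classes of transcript length, in no single order, and tissue markers differed between the libraries. Over all genes with at least 50 reads, the median log2 ratio was 0.21 for main forms of up to 1000 bases, -0.10 over 1000 and up to 2000 bases, -0.17 up to 3000, 0.07 up to 5000 and 0.22 beyond. In the same classes the genes described here had 0.12 (1 gene, Mpc1) and medians of -0.24 (7 genes), -0.22 (15 genes), 0.10 (10 genes) and 0.43 (2 genes). No read minimum was set for them, so that Pdk3 and Me3 were included with under 50 reads over both libraries. In the same binomial test 3 of 5 medulla markers, 4 of 6 skeletal muscle markers, 3 of 4 brown fat markers and 3 of 4 general adipocyte markers were higher in replicate 1, and none of these lists had a marker higher in replicate 2. Of 5 cortex markers 3 were higher in replicate 2 and 1 in replicate 1. The muscle markers Myh4 and Tnnt3 had too few reads to be tested. These counts stand beside 5.88% of all genes tested higher in replicate 1 and 5.74% in replicate 2, and calls rise with depth. The part of length and of tissue makeup in the ratios was not tested.

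Of 25 other genes of the pathway, 23 symbols had enough reads to be tested, as 24 entries since Nnt has 2 gene identifiers. Of these entries 7 were higher in replicate 1, 3 were higher in replicate 2 and 14 did not pass, with a median log2 ratio of -0.06. Over all genes tested 5.88% were higher in replicate 1 and 5.74% in replicate 2, and calls rise with depth. The highest was Acly, the cytosolic citrate lyase, with 5015 and 5876 reads and 1.73-fold higher in replicate 2 (adjusted p = 4.47e-177, exact binomial test). Sdha, the flavoprotein of succinate dehydrogenase, had 3123 and 1804 reads and was 1.17-fold higher in replicate 1 (adjusted p = 3.97e-06, exact binomial test). Lactate dehydrogenase A and the cytosolic carboxykinase, which take pyruvate and oxaloacetate out of these steps, were higher in replicate 1 too. Ldha had 1643 and 663 reads and was 1.68-fold higher in replicate 1 (adjusted p = 1.66e-28, exact binomial test), and Pck1 had 1165 and 512 reads and was 1.54-fold higher in replicate 1 (adjusted p = 1.25e-14, exact binomial test). Sdhb, the iron-sulfur subunit, had 893 and 625 reads and did not pass. Pdha2, known as a testis form of Pdha1, had no read.

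The main form held a median of 86.8% of a gene's reads in replicate 1 and 86.5% in replicate 2 over the 34 genes measured, beside 74.6% and 70.7% over all 6413 genes. In 19 of the 34 it exceeded 80% in both libraries and in 10 it exceeded 90%. It was an annotated transcript for 30, new for 3, and for Ogdh the sum of unspliced models. Pdk3 was not measured. The share differed between libraries for 3 genes, Cs, Dld and Idh3b, by Fisher's exact test, two-sided and adjusted over all 6413 genes, against 2.21% of those genes, and Dld alone passed when incomplete and genomic models were left out.

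Dld (ENSMUSG00000020664.10, chromosome 12, 31331277 to 31351453, minus strand) is described first because its call was kept without incomplete and genomic models. Dld-201, with 14 exons, took 878 of 916 reads in replicate 1 (95.9%, interval 94.3 to 97.1%) and 417 of 468 in replicate 2 (89.1%, interval 85.9 to 91.8%, adjusted p = 7.07e-04 in Fisher's exact test). A form of 13 exons that kept the intron from 31341479 to 31342743, of 1265 bases, took 5 reads (0.546%, interval 0.177 to 1.27%) and 24 reads (5.13%, interval 3.31 to 7.54%). The intervals of this form did not overlap between the libraries.

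Cs (ENSMUSG00000005683.8, chromosome 10, 128337734 to 128362479, plus strand) had 587 of 709 reads on Cs-201 in replicate 1 (82.8%, interval 79.8 to 85.5%) and 307 of 422 in replicate 2 (72.7%, interval 68.2 to 76.9%, adjusted p = 0.00843 in Fisher's exact test). Its unspliced models, Cs-202 included, took 38 and 44 reads, 5.36% and 10.4%. Models that match only the 3′ part of an annotated chain took 78 and 66 reads, 11% and 15.6%. Both kinds of incomplete model thus had the larger share in replicate 2.

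Idh3b (ENSMUSG00000027406.12, chromosome 2, 130279309 to 130284547, minus strand) had 447 of 597 reads on Idh3b-201 in replicate 1 (74.9%, interval 71.2 to 78.3%) and 252 of 389 in replicate 2 (64.8%, interval 59.8 to 69.5%, adjusted p = 0.0385 in Fisher's exact test). Unspliced models of up to 418 bases at the 3′ end took 45 and 67 reads, 7.54% and 17.2%. Exons of Nop56, with 81 and 96 reads, overlap those of Idh3b on the other strand, and the part of Nop56 RNA in these unspliced models was not tested. In 3 new spliced forms the last exon was cut by an intron with its 3′ end at 130279438. The first, with that intron beginning at 130279555 as in the annotated Idh3b-204, had 25 and 17 reads. The second, with the intron beginning at 130279526, had 21 and 11 reads. The third, in which it began at 130280262 and took in the whole preceding intron, had 17 and 6 reads. The exons of the first 2 forms gave the 384 codons of Idh3b-201 before the stop, and those of the third gave 380.

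**Figure D4:**
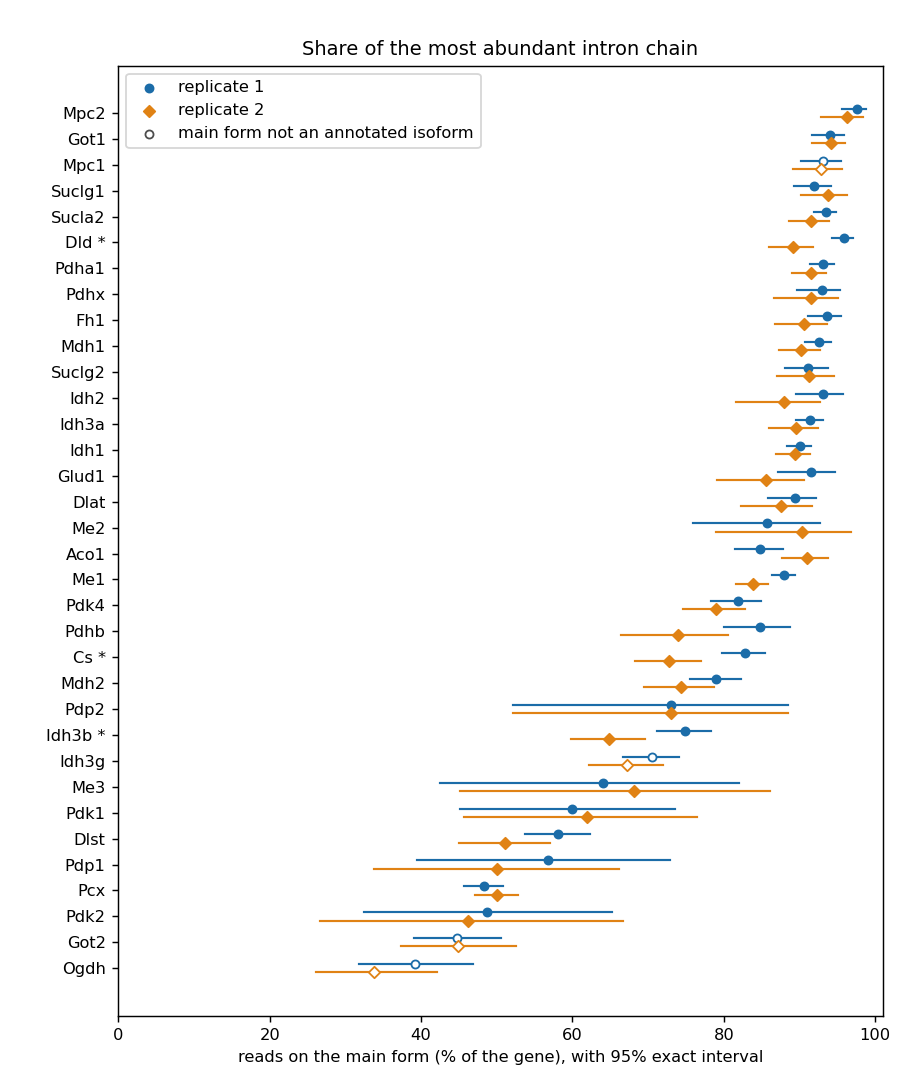
Share of each gene's reads on its main intron chain in replicate 1 (blue circles) and replicate 2 (orange diamonds), with exact 95% intervals, for the 34 genes that both libraries covered with 20 reads or more; open symbols mark a main form that is no annotated isoform and asterisks an adjusted p below 0.05 in Fisher's exact test. Mpc2 is highest at 97.6% and 96.3%, and Ogdh lowest at 39.2% and 33.8%.

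In Pcx, Ogdh, Pdk2 and Got2 the main form held under 50% of the reads on average. Pcx (ENSMUSG00000024892.17, chromosome 19, 4510472 to 4621752, plus strand) is known for alternative first exons. Pcx-201, with 21 exons, took 719 of 1490 reads in replicate 1 (48.3%, interval 45.7 to 50.8%) and 619 of 1238 in replicate 2 (50%, interval 47.2 to 52.8%). Pcx-202, which begins 83874 bases downstream of it, took 109 and 86 reads, 7.32% and 6.95%. A new form from the same downstream start, with a first intron from 4594461 to 4601599 as in Pcx-207, took 10 and 16 reads. Among reads that spliced from either start to the exon after 4601599, those from the upstream start made 762 of 886 in replicate 1 (86.0%, interval 83.5 to 88.2%) and 641 of 746 in replicate 2 (85.9%, interval 83.2 to 88.3%). First exon use therefore overlapped between the libraries. The remaining Pcx reads were mainly shortened chains, and spliced reads rose from 50.9% of the gene's reads at the first intron to 91.1% at the last in replicate 1, and from 51.8% to 87.6% in replicate 2.

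Ogdh (ENSMUSG00000020456.17, chromosome 11, 6291633 to 6356642, plus strand) had the lowest share of the 35 on models that span the coding sequence. Its annotated form Ogdh-201, with 23 exons and 4127 bases, took 23 of 171 reads in replicate 1 and 25 of 145 in replicate 2, 13.5% and 17.2%. Unspliced models took 67 and 49 reads, 39.2% and 33.8%. Reads spliced at the first intron made 14.6% and 20.0% of the gene's reads, and at the last of the 22 introns 59.1% and 64.1%. Models that spanned the coding sequence made 19.9% (interval 14.2 to 26.7%) and 24.8% (interval 18.0 to 32.7%). For Pdk2 (ENSMUSG00000038967.13, chromosome 11, 95026258 to 95041354, minus strand), Pdk2-201 took 19 of 39 and 12 of 26 reads, and unspliced models took 12 and 6.

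**Figure D5:**
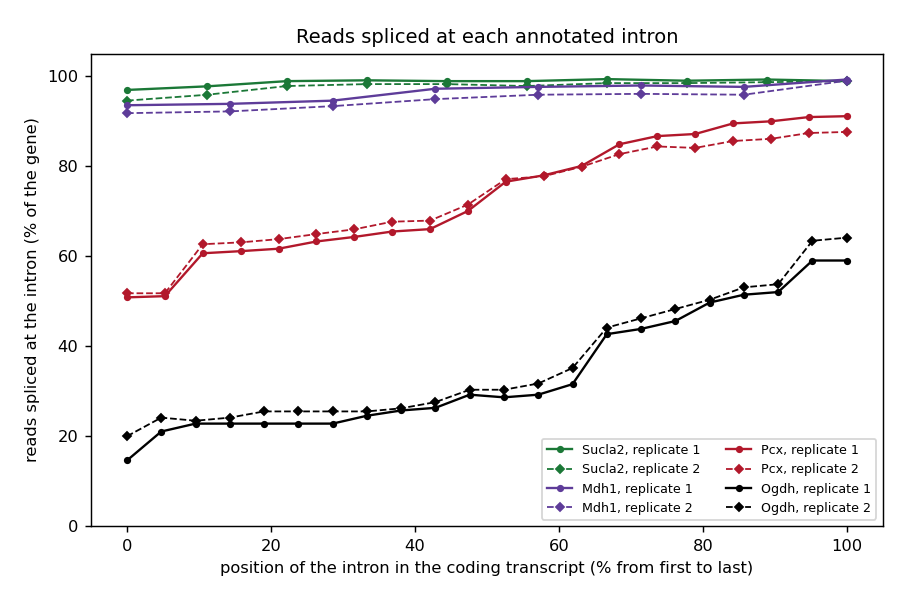
Reads spliced at each annotated intron of the coding transcript, as a percentage of all reads of the gene, from the first to the last intron, in replicate 1 (solid lines, circles) and replicate 2 (dashed lines, diamonds). Sucla2 and Mdh1 stay at 91.8% or more throughout, whereas Pcx rises from 50.9% and 51.8% and Ogdh from 14.6% and 20.0%.

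Models spanned the coding sequence in a median of 91.4% and 89.5% of reads over the 35 genes, beside 88.5% and 85.7% over 6267 genes. Besides Ogdh, the share was under 70% in both libraries for Pcx (51.5% and 52.5%), Pdk2 (51.3% and 53.8%), Dlst (63.2% and 55.0%) and Pdk1 (64.0% and 66.7%). Mpc1, Mpc2, Pdk3 and Sucla2 had 97.2% or more in both, for Mpc1 on the coding sequence of Mpc1-202, of 255 bases. A model that spans the coding sequence may still lack parts of it, as the forms of Mpc1 and Idh3g show by their internal junctions.

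New spliced forms with at least 5 reads in a library numbered 24 in these genes, and 23 of them, from 13 genes, occurred in both libraries, or 95.8%, beside 91.9% of 3062 such forms over all genes. Apart from those described, the 10 with the most reads included the third new Idh3g form with 18 and 8 reads, which had the same shifted intron and the alternative first exon of Idh3g-205. The last of the 10 was a Sucla2 form (ENSMUSG00000022110.13, chromosome 14, 73525319 to 73596142, plus strand) with 12 and 12 reads whose intron from 73552898 to 73568633 skipped the second exon of Sucla2-203. Its exons gave 35 codons before a stop, against 463 in Sucla2-203. It made 1.07% and 2.59% of the gene's reads. The other 13 forms, the third Idh3b form among them, had at most 17 reads in a library.

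Near-identical annotated sequences could divide reads of a gene. With minimap2, 9 of the 35 had a transcript of another gene with at least 85% identity over 200 or more aligned bases, 13 such genes in all. These 13 held 7 and 6 reads in all, and Got2-ps1, a copy of Got2, held most with 3 and 4 reads. Exons of other genes overlapped 7 of the 35 on the opposite strand and none on the same strand. Of those genes, only Nop56 and Wdpcp, which overlaps Mdh1 with 49 and 35 reads, had more than 2 reads in a library.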

How the data were processed

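Long reads were measured in 2 libraries of 1 group. The authors deposited read counts per transcript model, whole numbers without normalization, on mm10 with GENCODE M21 per the file headers and the text beside them. The field names are those of TALON, and the aligner, version and read filters are not given in the sources used here. Model lengths, exon numbers and coordinates were deposited with the counts.

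The genes, their roles and the other lists were chosen with earlier results of these data known. Counts were summed per annotated gene, without ERCC reads and models of new genes (3.24% and 5.87% of mouse reads). Totals were 1412947 and 933963, with TMM factors 0.989 and 1.01 from edgeR. The libraries were compared for genes reaching 10 reads in sum, by a two-sided exact binomial test given each gene's sum of reads, and p-values were adjusted by Benjamini-Hochberg over these genes. Log2 ratios used a prior of 0.5 counts. edgeR's exact test used a common dispersion from an intercept-only design. Isoforms were keyed by intron chain, with all unspliced models of a gene as 1 key, chosen after seeing the data. Main form shares were compared by Fisher's exact test at 20 or more reads in each library. New spliced forms needed 5 reads in a library. Reading frames were followed from the annotated start codon through annotated bases. The steps were tested on simulated data.

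Every gene of the list was named with its reads. Interval and adjusted p were given for genes past the binomial test. Isoforms were detailed where the main form was new, under 50% or past Fisher's test, and for the 10 new forms with the most reads in both libraries. Of other pathway genes the 6 with the highest mean CPM and any at 0 were to be named, and 1 of these is not reported here. Alternatives covered DESeq2 size factors, total and ERCC scaling, model classes, read minimums, the isoform key and leaving out a library. The lists for liver, kidney, blood and macrophages were read as markers too: blood summed to 1520 and 1309.5 CPM and macrophages to 251 and 305 CPM. Tools were edgeR 4.0.16 and DESeq2 1.42.0 in R 4.3.3, minimap2 2.31, and Python 3.11.15 with scipy 1.17.1, pandas 2.3.3, numpy 2.4.6 and matplotlib 3.10.9.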

Additional observations from a re-analysis of the deposited data

How the results depend on the processing

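No paired analysis was possible because the series has 1 group. The count of genes called between the libraries was 10 with DESeq2 size factors, 9 with total reads and 7 with Known models only, where 5 in place of 8 were higher in replicate 1. Over all genes these settings called 11.7%, 11.7% and 11.2%. With ERCC totals as the scale the median over all genes moved from -0.02 to -0.33, the median over the 35 genes to -0.49, and 22 genes were called, of which 22 had the higher level in replicate 1 and 0 in replicate 2. Over all genes that scale called 2360 genes (21.3%), 2118 of them higher in replicate 1, in place of 651 of 1286. The log2 ratio of Pcx turned to -0.0294 under that scale. edgeR's exact test, which adds a spread estimated from the same 2 libraries to counting error, called 0, with 0 at an unadjusted p under 0.05. With a minimum of 50 reads 19.6% of all genes were called and with no minimum 6.26%, and 10 of the 35 in both cases. The share of reads on the 35 genes ranged from 1.22% to 1.33% and the median CPM from 298 to 362 when either library was left out, and the median main form share from 86.55% to 86.8%. On the scale of CPM per kb, 5 of the 10 highest genes stayed. The median main form share was 85.75% with isoforms keyed by transcript identifier and 95.95% without incomplete and genomic models. The count of genes whose main form share differed was 8 with the first of these keys, beside 13.2% of all genes, and 1 with the second, beside 0.994%. New spliced forms in both libraries numbered 63 at 2 reads and 14 at 10 reads. With small exons ignored and splice sites allowed to shift, an alternative chosen after seeing the data, 0 main forms were new. The cause of these changes was not tested. Depth limits the least read genes, since 7 of the 35 had under 60 reads in a library. Leaving out a library leaves no comparison between libraries, so that this was not run for ratios.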
